A study of Homo sapiens with 6 samples.

Results

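The genes described here are the cytosolic chaperones and heat shock genes of MDA-MB-231 cells, with the mitochondrial chaperones that share their families. They were chosen by name from 10 classes: heat shock transcription factors, HSP70, HSP110 and HSP90 proteins, small heat shock proteins, mitochondrial chaperones, J domain proteins, BAG proteins with STUB1 and ST13, HSP90 co-chaperones, and subunits of the CCT chaperonin. All 44 genes were found among the 28979 gene IDs of the count tables, and 43 of them passed the filter on low counts that left 14547 genes to test. No expression value was used to choose them, but earlier results of these data were known when they were chosen. MDA-MB-231 is an established human breast cancer cell line with mesenchymal features. The study exposed breast cancer cells to exosomes, small membrane vesicles, from normal and from hypertrophic heart muscle cells, to look for targets of the microRNAs they carry. Poly-A RNA was sequenced in 6 libraries, 3 labelled Con and 3 labelled Ang. No label states what Con and Ang stand for, what dose or time was used, or whether the libraries of a group came from separate cultures, so the p-values below reflect only library-to-library spread, possibly a technical one.

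Chaperones bind unfolded or partly folded proteins and keep them from clumping. In the cytosol, J domain proteins hand a client to HSP70, exchange factors of the HSP110 and BAG families make HSP70 release it, and HSP90 with its co-chaperones finishes the folding of kinases and steroid receptors, while the ring-shaped CCT chaperonin folds actin and tubulin. Under heat or other protein damage the transcription factor HSF1 binds heat shock elements, runs of the unit GAA and its complement TTC in alternation, and switches on the inducible members. Cancer cells often hold high levels of these proteins without heat.

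The heat shock element is the sequence through which HSF1 acts, so the matches to it in the promoters of the members, constitutive and inducible alike, are shown first. RefSeq promoter windows on GRCh38.p14, 250 bases before to 50 bases after each gene's start, were matched for 38 of the 44 genes, and HSF1, HSPA14, STUB1, ST13, FKBP4 and CCT6A had no entry. A pair of units, GAANNTTC or TTCNNGAA, was found on either strand in 12 of the 38 windows (31.6%), against 13.7% of 27305 promoters of the same length. A run of 3 units, that is the pair followed by any 2 bases and the next unit in alternation, was found in 4 of the 38 (10.5%), against 0.487% of all promoters. These 4 windows, with the 2 inducible HSP70 genes and HSPB1 as examples of the pair, are printed 5′ to 3′ on the strand of the gene with the units and the bases between them in capitals.
HSPA8: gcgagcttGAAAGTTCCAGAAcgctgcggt
CHORDC1: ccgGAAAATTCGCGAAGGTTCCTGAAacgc
DNAJB6: agagccgaGAACCTTCGCGAAggtggggcg
DNAJA1: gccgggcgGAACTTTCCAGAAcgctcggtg
HSPA1A: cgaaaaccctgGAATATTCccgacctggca
HSPA1B: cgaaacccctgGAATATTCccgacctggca
HSPB1: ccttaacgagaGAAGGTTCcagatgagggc

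On GRCh38.p14 the printed stretch of HSPA8 lies at chr11:123062345-123062374 on the minus strand. Its motif starts 230 bases before the RefSeq start of the gene, and all distances here are from RefSeq starts. The CHORDC1 run, the longest at 5 units, lies at chr11:90223083-90223112 on the minus strand, 60 bases before the start. The DNAJB6 site lies at chr7:157336865-157336894 on the plus strand, 131 bases before the start, and the DNAJA1 site at chr9:33025268-33025297 on the plus strand begins at base 4 of the transcript. The pairs of HSPA1A at chr6:31815426-31815455, of HSPA1B at chr6:31827622-31827651 and of HSPB1 at chr7:76302480-76302509 are all on the plus strand and lie 106, 105 and 182 bases before their starts. HSPA1A and HSPA1B carry the same motif letters. A match describes these letters in this window and does not show that HSF1 binds there. The other members with a pair were HSPB8, HSPA9, BAG2, CCT4 and TCP1. The windows of the inducible HSP90AA1, DNAJB1 and HSPH1 held no pair, which says only that these letters are not in these 300 bases. Those of HSP90AA1 (chr14:102139700-102139999) and DNAJB1 (chr19:14529222-14529521) lie at or near the upstream ends of these genes. Any other starts of these genes were not searched.

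Total counts per library were 3369212 to 5437190. By these totals alone, without TMM normalization, 3 counts were worth 0.552 to 0.890 CPM. All other CPM values here are counts scaled to the library total after TMM normalization. Con replicate 2 stood apart in strand, as seen in 250 pairs of a coding gene and a non-coding gene on the other strand. In these pairs the coding gene had 300 counts or more and covered 90% or more of the non-coding gene's exon length. In Con replicate 2 the non-coding gene held a median of 23.2 times the counts per base of the coding gene. The other 5 libraries gave 32.9 to 41.1 times. Counts per base were taken over all exons of each gene, so this ratio was not measured at the shared bases. How the authors' counter was set for strand is not given in the sources used here, so the value of any gene that shares exon bases with a gene on the other strand is uncertain. Genes free of such overlap also differed by library. They held 28.7% of all counts in Con replicate 2 and 21.7% to 25.5% in the other 5 libraries. Whether the strand setting bears on their levels was not tested. The cells carried VIM, CD44, KRT18, KRT8, AXL, CAV1 and FN1 while SPARC, listed as a marker of the line, had 0 to 4 counts a library. Of 8 luminal and epithelial genes, ESR1, PGR, CDH1 and FOXA1 had 0 to 12 counts a library, GATA3 had 5 to 39 and EPCAM 30 to 60, whereas KRT19 at a mean of 108.2 CPM and ERBB2 at 105.1 CPM were well detected. Of 18 heart muscle markers 11 were matched, and 9 of them, among them MYH6, MYL2, TNNI3 and RYR2, had 0 to 8 counts a library. The other 2, TTN and NPPA, have 15.5% and 25.5% of their exon bases under exons on the other strand. Such overlap also touched VIM (24.4%), KRT18 (16.3%), KRT8 (7.63%) and ERBB2 (7.41%), among others, but not CAV1, FN1 and KRT19. TTN and NPPA brought the summed heart marker level to 207 to 310 CPM in Con and 216 to 258 CPM in Ang. The part of TTN and NPPA in the results below was not tested.

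Ang against Con asks whether the chaperone genes differ between the 2 sets of cells. None of the 43 tested genes passed an adjusted p of 0.05 by edgeR's quasi-likelihood test with Benjamini-Hochberg adjustment, and the background was the same, with 0.00% of 14547 genes called. None reached an unadjusted p under 0.05 either, against 3.40% of all genes, and DESeq2 and limma-voom also called 0. A positive log2 fold change, Ang minus Con, was seen in 23 genes and a negative one in 20, with a median of 0.02 against -0.01 over all genes, where 49.2% were positive. The differences ran from -0.25 for BAG2 to 0.71 for HSPE1. The 44 genes together held 6405, 6249 and 5891 CPM in the Con libraries and 6302, 6292 and 6123 CPM in the Ang libraries. Thus the 3 Ang sums lay within the Con range.

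The intervals say how large a difference these libraries leave room for. The 95% interval of the fold change lay between a 2-fold fall and a 2-fold rise in 42 of the 43 genes, HSPE1 being the exception, against 64.2% of all tested genes. Within 1.5-fold it lay in 30 of the 43, and in 4113 of all 14547 tested genes. The members are abundant, which narrows their intervals, with a median SE of 0.18 on the log2 scale against 0.30 over all genes. Of the 3408 tested genes whose mean reached 50 CPM, 3406 had an interval within 2-fold, and 27 members stood at that level. In whole cultures a change in the share of cells and a change of RNA per cell cannot be told apart.

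**Figure D1:**
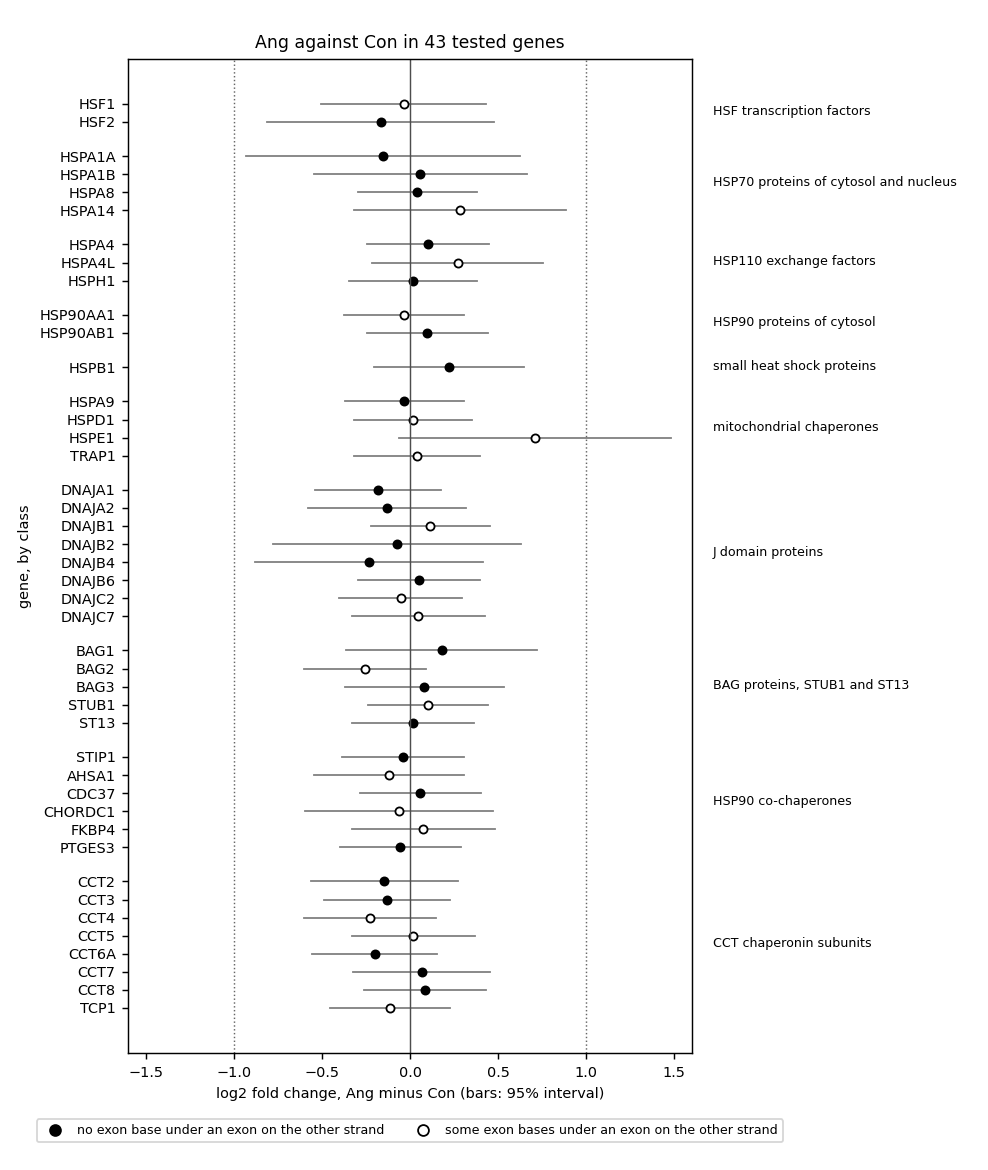
Log2 fold change, Ang minus Con, with its 95% interval for the 43 tested genes, grouped by class; filled points are genes with no exon base under an exon on the other strand and open points the others, and the vertical lines mark 0 and a 2-fold difference in each direction. The intervals all span 0, and only that of HSPE1 runs past 2-fold.

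**Figure D2:**
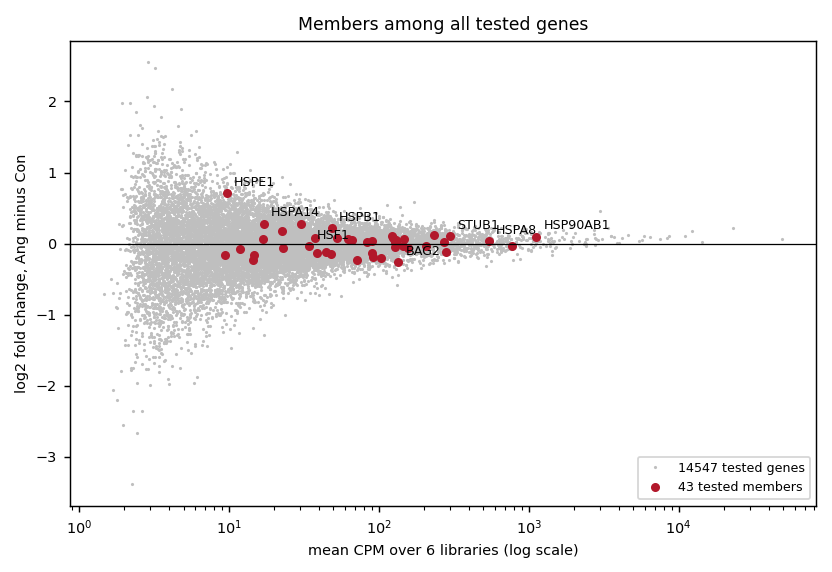
Log2 fold change, Ang minus Con, against the mean CPM over 6 libraries on a log axis, for the 14547 tested genes in grey and the 43 tested chaperone genes in red. The chaperone genes lie between -0.25 and 0.71, toward the abundant side of the cloud.

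The 2 heat shock transcription factors stood at 5.43 (HSF2) and 6.51 CPM per kilobase of exon (HSF1), in the lower part of the members. HSF1, the main activator of the heat shock response, had 27.2, 44.5 and 33.0 CPM in Con and 37.0, 33.3 and 32.4 CPM in Ang. HSF2, a related factor that can pair with HSF1, had 14.8, 16.6 and 15.1 CPM in Con and 13.2, 9.58 and 18.8 CPM in Ang. In both genes the groups overlapped, with the highest HSF1 value in Con replicate 2 and the widest HSF2 spread within Ang. Their log2 fold changes were -0.04 ± 0.24 (SE) for HSF1 and -0.17 ± 0.33 for HSF2. Without Con replicate 2, HSF1 gave 0.19 ± 0.24, and without Ang replicate 3 it gave 0.002, so its sign rests on single libraries.

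Per kilobase of exon, the constitutive HSP70 gene HSPA8 stood at 112.0 CPM, above HSPA1B at 6.71, HSPA14 at 6.46 and HSPA1A at 3.79. HSPA8, on chromosome 11 (123057489 to 123063230), had 554.6, 578.5 and 473.7 CPM in Con and 549.0, 565.0 and 538.7 CPM in Ang, which is a difference of 0.04 (log2), with all Ang values inside the Con range. HSPA1A and HSPA1B encode the heat-inducible HSP70. HSPA1A had 6.55, 15.6 and 7.55 CPM in Con and 5.87, 12.4 and 8.67 CPM in Ang. HSPA1B had 15.4, 21.5 and 12.6 CPM in Con and 21.1, 17.7 and 13.3 CPM in Ang. The groups overlapped in both genes, at -0.15 ± 0.40 and 0.06 ± 0.31 on the log2 scale, and Con replicate 2 held the highest Con value of each. These neighbours on chromosome 6 share 71.3% (HSPA1A) and 71.4% (HSPA1B) of their 50-base exon words with genes that do not overlap them, chiefly each other. HSPA1B also shares 35.3% with genes that overlap its locus. On its own strand, 36.5% of its exon bases lie under exons of another gene. The split of reads between HSPA1A and HSPA1B, and the level of each beside HSPA8, are therefore uncertain. HSPA1A changed sign without Con replicate 2, to 0.36 ± 0.47, and without Ang replicate 1, to 0.07 ± 0.43. HSPA14, a ribosome-bound relative, had 12.0, 17.9 and 16.4 CPM in Con and 15.8, 22.2 and 18.2 CPM in Ang (0.28 ± 0.31), again with overlap.

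The HSP110 proteins, relatives of HSP70 that act as its exchange factors, were positive in 3 of 3 genes, and none passed the test. HSPA4 had 124.4, 113.6 and 115.4 CPM in Con and 128.8, 124.6 and 125.9 CPM in Ang. HSPA4L had 27.0, 30.4 and 24.5 CPM in Con and 32.0, 36.3 and 30.9 CPM in Ang. In both every Ang library lay above every Con library, though the lowest Ang value lay just above the highest Con value. Such a separation was seen in 3 of the 43 genes, beside 3.62% of all tested genes, and the reverse in 0 of the 43, beside 4.54%. In either direction the groups were thus apart in 3 of the 43, against 8.16% of all genes. HSPH1, the heat-inducible member, had 74.3, 94.0 and 80.2 CPM in Con and 92.7, 73.9 and 85.5 CPM in Ang, with full overlap and a log2 fold change of 0.02. The differences of the other 2 were 0.10 ± 0.18 for HSPA4 and 0.27 ± 0.25 for HSPA4L.

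The 2 cytosolic HSP90 genes had the highest levels of the members per kilobase of exon. HSP90AB1, the constitutive form on chromosome 6 (44246166 to 44253888), had 1147, 1134 and 970.9 CPM in Con and 1149, 1212 and 1123 CPM in Ang. HSP90AA1, the inducible form on chromosome 14 (102080738 to 102139699), had 850.9, 753.6 and 732.5 CPM in Con and 814.2, 755.9 and 711.4 CPM in Ang. The groups overlapped in both, at 0.10 ± 0.17 and -0.03 on the log2 scale, and Con replicate 3 was the lowest Con library in both. Summed HSP90 was 1863 ± 149 CPM (SD, n = 3) in Con and 1922 ± 75.6 CPM (SD, n = 3) in Ang.

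Per kilobase of merged exon, over all 6 libraries, HSP90AB1 led with a mean of 376.7 CPM per kilobase (325.8 to 406.6). HSP90AA1 came next at 146.7 (135.6 to 162.1), then STUB1 at 129.0 (100.8 to 154.7) and HSPA8 at 112.0 CPM per kilobase (97.7 to 119.3). HSP90AB1 did not overlap any other member, while each of the following 3 overlapped its neighbour in this order. HSPD1 at 64.0, DNAJB1 at 63.6 and TCP1 at 56.9 CPM per kilobase also overlapped one another. At the low end stood HSPA4L at 2.60, CHORDC1 at 2.17 and DNAJB2 at 2.04 CPM per kilobase, whose ranges overlapped, and HSPB8 at 0.525, whose range lay below theirs. In all, 28 members reached 10 CPM per kilobase. The order depends on the length used: with that of the longest transcript, HSPA8 (220.6) stood above HSP90AA1 (219.3) and STUB1 (161.2 CPM per kilobase).

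**Figure D3:**
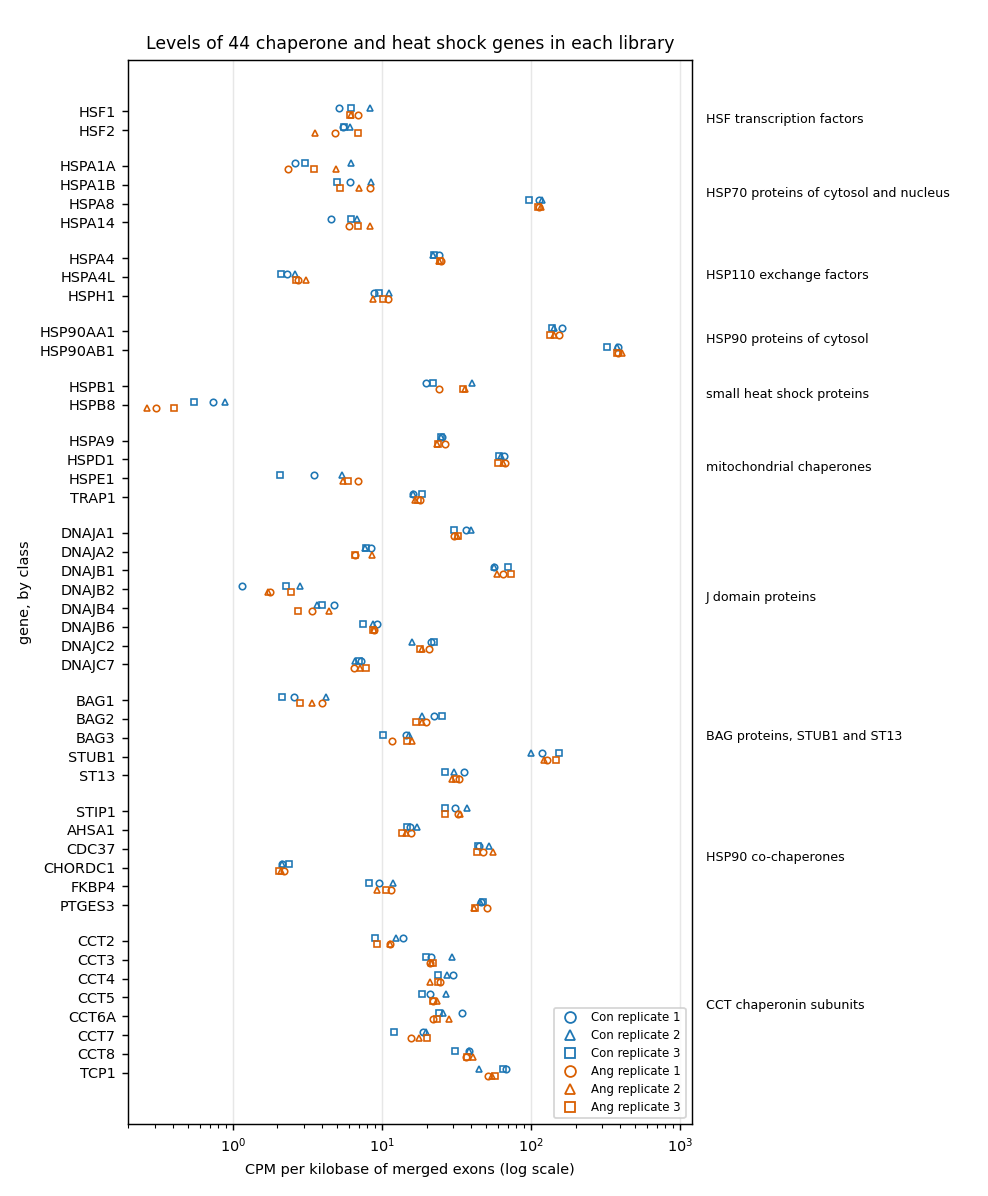
Level of each of the 44 genes in each library, in CPM per kilobase of merged exon on a log axis, with Con and Ang libraries in separate colours. The range runs from HSPB8 at a mean of 0.525 to HSP90AB1 at 376.7, and the points of the 2 groups lie over each other in most genes.

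Of the small heat shock proteins, which hold unfolded proteins without using ATP, HSPB1 was detected well and HSPB8 barely. HSPB1, also known as HSP27, had 32.3, 65.8 and 35.9 CPM in Con and 39.9, 59.5 and 57.8 CPM in Ang. Con replicate 2 was the highest of the 6 libraries, and the groups overlapped (0.22 ± 0.22). Without Con replicate 2 every Ang library lay above the remaining Con libraries, at 0.63 ± 0.22 on the log2 scale, and edgeR's adjusted p was 0.205, the lowest that any member had under any alternative. HSPB8, which works with BAG3 to send aggregates to autophagy, had 10, 15 and 5 counts in Con and 3, 3 and 4 counts in Ang and did not pass the filter. All its Ang libraries lay below all Con libraries in CPM, and the ratio of summed counts was 0.425 (exact 95% interval 0.186 to 0.894, which covers counting error only and not the spread between libraries).

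The mitochondrial chaperones summed to 574 ± 8.94 CPM in Con and 580 ± 31.2 CPM in Ang (SD, n = 3 each). HSPD1, the HSP60 chaperonin, had 282.8, 268.3 and 258.9 CPM in Con and 286.4, 278.4 and 254.8 CPM in Ang. HSPA9, the mitochondrial HSP70, had 210.1, 206.2 and 207.0 CPM in Con and 220.7, 192.9 and 196.4 CPM in Ang. TRAP1, the mitochondrial HSP90, had 84.3, 85.2 and 97.5 CPM in Con and 94.2, 87.7 and 92.1 CPM in Ang. These 3 overlapped between groups, with log2 fold changes of 0.02, -0.03 and 0.04.

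HSPE1, the HSP10 lid of the HSP60 chaperonin, had the largest positive difference of the members and the smallest p. It had 6.97, 10.7 and 4.09 CPM in Con and 13.8, 10.8 and 11.8 CPM in Ang, from 33, 63 and 13 counts in Con and 47, 43 and 41 counts in Ang. Every Ang library lay above every Con library, but Ang replicate 2 and Con replicate 2 were almost level. The log2 fold change was 0.71 ± 0.39 with an unadjusted p of 0.0714 by edgeR's quasi-likelihood test, an adjusted p of 0.999, and a 95% interval of 0.958-fold to 2.79-fold. Over the libraries left out in turn it ran from 0.45 (without Con replicate 3) to 1.10 (without Con replicate 2, adjusted p of 0.301), and with the replicate number as a block it was 0.79 ± 0.40 (adjusted p of 0.9998). HSPE1 and HSPD1 lie head to head on opposite strands of chromosome 2 and share 281 exon bases, 14.2% of those of HSPE1, and HSPD1 held 13 times the counts per base of HSPE1. The HSPD1 and HSPE1 proteins work as 1 machine in the cell, and HSPD1 had a log2 fold change of 0.02. HSPE1 pseudogenes held 24 counts in all beside the 240 of HSPE1. Of the exon words of HSPE1, 7.61% occur in genes elsewhere and 17.9% in genes that overlap its locus. On its own strand, 9.71% of its exon bases lie under exons of another gene. Whether these shared bases bear on its level or its difference was not tested.

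Among the 8 J domain proteins, which choose clients for HSP70 and start its ATP cycle, 3 differences were positive and 5 negative, with a median of -0.06. DNAJB1, the inducible HSP40, had 208.4, 207.6 and 257.0 CPM in Con and 239.7, 218.3 and 270.7 CPM in Ang. DNAJB6, which holds back amyloid-forming proteins, had 139.6, 131.7 and 111.7 CPM in Con and 133.5, 133.9 and 130.3 CPM in Ang. DNAJA1, a farnesylated HSP40, had 100.5, 108.7 and 84.0 CPM in Con and 83.3, 87.5 and 88.1 CPM in Ang. All 3 overlapped, at 0.12, 0.05 and -0.18 ± 0.18, although 2 of the Con libraries of DNAJA1 lay above every Ang library. DNAJB4, also known as HLJ1, had 18.2, 13.9 and 15.1 CPM in Con and 12.9, 16.6 and 10.4 CPM in Ang (-0.23 ± 0.33), with overlap. The 8 genes together held 714 ± 26.7 CPM in Con and 717 ± 19.9 CPM in Ang (SD, n = 3 each). Of the rest of the class, over all 6 libraries, DNAJA2 ran from 33.5 to 43.9 CPM, DNAJB2 from 6.76 to 16.6, DNAJC2 from 104.5 to 147.2 and DNAJC7 from 61.0 to 73.7 CPM, with overlap in each.

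In the class of BAG proteins, STUB1 and ST13, 4 differences were positive and BAG2 was negative. STUB1, the ubiquitin ligase also known as CHIP that marks chaperone clients for destruction, had 273.7, 233.5 and 358.2 CPM in Con and 298.4, 285.7 and 343.2 CPM in Ang. Its Con libraries spanned its Ang libraries on both sides (0.10). BAG2, an inhibitor of STUB1, had 149.1, 123.9 and 169.2 CPM in Con and 132.3, 124.6 and 112.9 CPM in Ang. Con replicate 2 was the lowest Con library of both genes, and without it the Con values of BAG2 lay above all Ang values, at -0.36 ± 0.14 against -0.25 ± 0.18 with all libraries, adjusted p of 0.248 and 0.999 by edgeR. BAG1, an HSP70 exchange factor that also binds BCL2, had 18.2, 29.7 and 15.1 CPM in Con and 28.2, 24.2 and 19.9 CPM in Ang. Its difference of 0.18 ± 0.28 ran from -0.005 without Con replicate 3 to 0.53 without Con replicate 2. BAG3, the partner of HSPB8, ran from 28.0 to 43.9 CPM over the 6 libraries, and ST13, the HSP70-interacting protein HIP, from 109.8 to 148.3 CPM, with overlap in both.

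The HSP90 co-chaperones were divided, with 2 positive and 4 negative differences between -0.12 and 0.08. PTGES3, the p23 protein that holds HSP90 closed, had 156.9, 155.9 and 163.6 CPM in Con and 172.5, 142.5 and 143.3 CPM in Ang. CDC37, which brings kinases to HSP90, had 136.0, 159.7 and 134.6 CPM in Con and 145.8, 169.4 and 133.4 CPM in Ang. AHSA1, which speeds up the ATPase of HSP90, had 45.6, 51.0 and 43.4 CPM in Con and 46.1, 42.6 and 40.4 CPM in Ang. The groups overlapped in each, at -0.06, 0.06 and -0.12. FKBP4, the steroid receptor co-chaperone FKBP52, had 49.8, 61.4 and 42.8 CPM in Con and 60.1, 47.9 and 55.2 CPM in Ang (0.08 ± 0.21), and Con replicates 2 and 3 bracketed all Ang values. The remaining STIP1, which links HSP70 to HSP90, and CHORDC1, a stress-induced HSP90 partner, ran from 123.3 to 173.1 CPM and from 21.9 to 25.5 CPM over the 6 libraries, with overlap. Rows of CDC37 pseudogenes held 836 counts, 22.9% of those of CDC37. Of the 50-base exon words of CDC37, 0.404% occur in genes elsewhere and 0.995% in genes that overlap its locus. Whether any of these counts belong to CDC37 was not tested.

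The CCT subunits were negative in 5 of 8 genes, with a median of -0.12. Every CCT ring holds each subunit once, and their levels ran from 11.2 (CCT2) to 56.9 CPM per kilobase (TCP1). TCP1, the alpha subunit, had 335.2, 220.9 and 319.2 CPM in Con and 252.9, 272.1 and 283.1 CPM in Ang. Without Con replicate 2, its lowest library, TCP1 gave -0.28 ± 0.11 against -0.11 ± 0.17 with it, and an adjusted p of 0.303 by edgeR. CCT4 had 85.1, 77.2 and 67.9 CPM in Con and 70.1, 59.8 and 67.6 CPM in Ang (-0.23 ± 0.19), where 1 Ang library lay above the lowest Con library. CCT6A had 135.8, 101.3 and 94.7 CPM in Con and 86.8, 109.9 and 92.1 CPM in Ang (-0.20 ± 0.18), with its high value in Con replicate 1. CCT5 had 122.5, 156.9 and 109.5 CPM in Con and 128.2, 138.2 and 128.5 CPM in Ang (0.02), inside the Con range. The 8 subunits summed to 1022, 927.9 and 856.8 CPM in Con and 850.9, 915.0 and 898.3 CPM in Ang, so the groups overlapped. Over the 6 libraries CCT2 ran from 38.7 to 59.8 CPM, CCT3 from 79.3 to 118.2, CCT7 from 43.7 to 72.8 and CCT8 from 103.8 to 135.9 CPM, and the differences of the class ran from -0.23 to 0.08.

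Exons on the other strand touched 18 of the 44 genes, in 24 pairs of a member and a partner, with HSPD1 and HSPE1 counted from each side. In 12 of the pairs the partner held more counts per base than the member. AC005841.1, a non-coding gene on chromosome 12 with 287 exon bases, 99.3% of them under FKBP4, had 6685 counts in all against 1321 of FKBP4, or 93.3 times the counts per base. AC012640.4 had 12542 counts against 3286 of CCT5, 9.07 times per base. AC107081.2 had 3581 counts against 1786 of CCT4, 7.31 times per base. In each of these 3 pairs the lowest ratio was that of Con replicate 2, at 72.8 for FKBP4, 5.75 for CCT5 and 4.76 for CCT4. Coding partners also held more counts than the member, with 13153 for DNASE1 against 2201 for TRAP1 (2.28 times per base) and 10060 for JMJD8 against 7154 for STUB1 (1.24 times per base). The level of STUB1, 42.4% of whose exon bases lie under the other strand's exons, and that of BAG2, with 44.2%, are therefore uncertain. ZNF451-AS1 had 4299 counts against 3313 of BAG2 (1.77 times per base), and CDNF had 504 against 420 of HSPA14 (1.85 times per base).

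**Figure D4:**
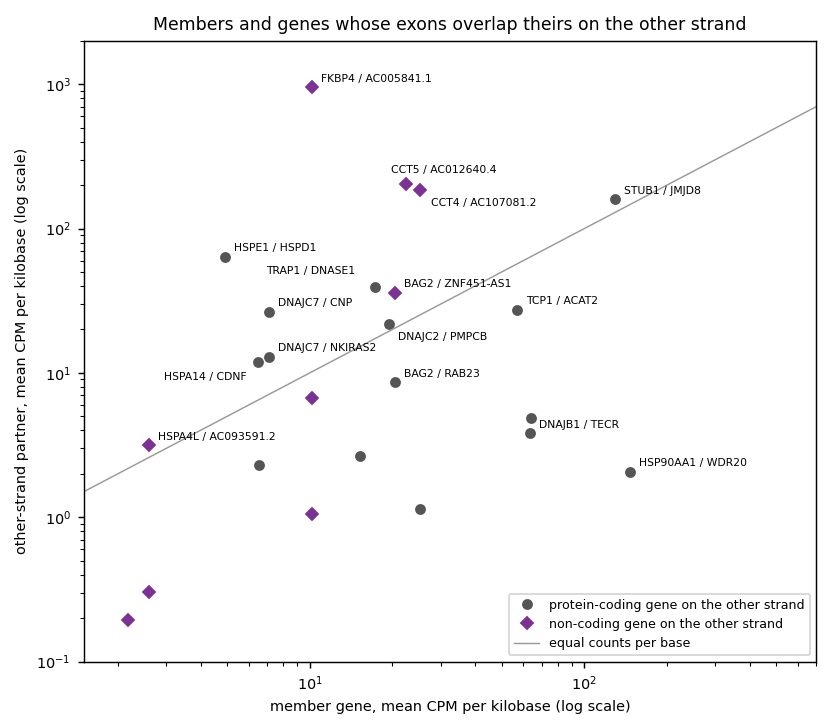
Mean CPM per kilobase of a member gene and of the gene whose exons overlap its exons on the other strand, both on log axes, over 24 pairs; the line marks equal counts per base. In 12 pairs the point lies above the line, highest for FKBP4 with AC005841.1 at 93.3 times.

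The Con libraries varied more than the Ang libraries. The SD of CPM was larger in Con in 35 of the 44 genes (79.5%), against 63.1% of all tested genes, and the median coefficient of variation was 14.6% in Con and 9.57% in Ang. Con replicate 2 was the highest Con library in 22 of the 44, and in 15 of the 26 genes free of exons on the other strand (57.7%), against 49.7% of all tested genes so free. Of the 18 members with any exon bases under the other strand, it was the highest in 38.9% and the lowest in 33.3%. Over all tested genes with any such bases, the shares were 27.0% and 48.0%. Of the 13 members with at least 5% of such bases, it was the highest in 4 and the lowest in 6. Con replicate 3 was the lowest Con library in 24 of the 44 (54.5%), against 34.5% of all tested genes. Among genes free of exons on the other strand it was the lowest in 61.5% of the members and 44.3% of all tested genes. Among genes with any such bases, the shares were 44.4% and 26.1%. Split by strand overlap, the medians of the log2 fold changes were alike at 0.02 in the 25 tested genes free of it and 0.02 in the 18 others.

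**Figure D5:**
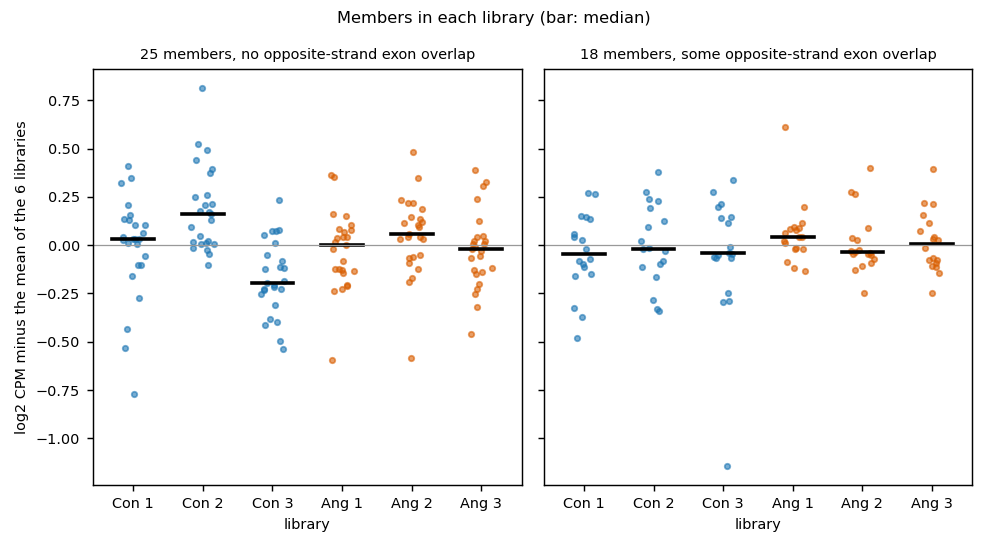
Log2 CPM of each tested gene (1 point) in each library minus the mean of its 6 libraries, with the median as a bar, for the 25 genes free of exons on the other strand and the 18 others. In the first panel the Con replicate 2 median lies highest and the Con replicate 3 median lowest, while in the other panel all 6 medians lie near 0.

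Without Con replicate 2, 40 of 14867 genes passed the threshold (0.269%) and 11.0% had an unadjusted p under 0.05. None of the members was among those called, and 4 of 43 had an unadjusted p under 0.05: HSPB1 and HSPE1 with higher values in Ang, BAG2 and TCP1 with lower. The 4 genes with a run of 3 heat shock units, HSPA8, CHORDC1, DNAJB6 and DNAJA1, had log2 fold changes of -0.18 to 0.05 with a median of -0.01, beside a median of 0.02 in the 33 other tested genes that have a promoter window.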

How the data were processed

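Libraries of 6 samples of MDA-MB-231 cells were made from poly-A RNA with random priming and 15 cycles of PCR, per the labels' protocols. The authors deposited raw counts per gene, 1 table per library. The submitters' processing notes name HTSeq 0.9.1, DESeq 1.39.0 and GRCh38. For the aligner, the annotation and the strand option, this is not given in the sources used here. No column of other samples was present (0 unused).

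Of 28979 gene IDs, 28918 had a symbol and 28192 were matched to GENCODE 29 on GRCh38, which gave coordinates and exons. Counts were fitted with edgeR 4.0.16 in R 4.3.3 (filterByExpr, TMM scaling, robust quasi-likelihood test, Benjamini-Hochberg threshold of 0.05) over all tested genes and all 6 libraries. Errors are SE for log2 fold changes and SD for CPM. No libraries were identical or agreed within sampling noise. Reads amplified by PCR and lacking molecular identifiers may be copies, so intervals and floors from counts cover counting error only. The fit was tested on simulated data. Exon overlap was found with bedtools 2.31.1, and sequence sharing from 50-base words.

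Per class, the 2 genes of highest mean CPM and the 2 of smallest unadjusted p were given with every library, with HSF1, HSF2, HSPA1A and HSPA1B added. Members outside that rule, and the further partners named, were chosen after their values were seen. The members and lists were chosen with earlier results of these data known. Alternatives were RLE scaling, other filters, DESeq2 1.42.0, limma-voom from limma 3.58.1, a replicate block, leaving out each library, genes free of overlap, other lengths and a stricter motif.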

Additional observations from a re-analysis of the deposited data

How the results depend on the processing

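No member passed the threshold under any of the 13 other fits, in 541 recomputed values, of which 43 changed sign without a call. Leaving out each library in turn, the members called stayed at 0 to 0 and their median log2 fold change ran from -0.0418 (without Con replicate 3) to 0.0661 (without Con replicate 2), with 12 to 27 positive. Over all genes the count called ran from 0 to 40, higher in Ang 0 to 20 and lower in Ang 0 to 20. It was 1 without Con replicate 1 and 40 without Con replicate 2, and the cause was not tested. Refitted on genes free of exons on the other strand alone, 12 of 25 members were positive with a median of -0.0007, against 13 of the same number in the fit of all genes. Asking for 3 heat shock units instead of 2 left 4 promoters of 12, since it is stricter by construction. With the longest transcript as length, 34 members in place of 28 reached 10 CPM per kilobase. Unadjusted p under 0.05 was reached by 308 genes (free of overlap) to 1633 genes (without Con replicate 2).

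With the replicate number as a block, 0 genes and 0 members were called, the median of the members was 0.0182, and HSPE1 alone had an unadjusted p under 0.05. Libraries of the same number correlated at 0.0370, 0.0675 and 0.0356 in their deviations from the group means and those of different numbers at -0.0697 to 0.0302, so the numbers were not shown to pair the samples, although each library correlated best with its own number, a hint from the data and not from the design. HSPB8, at 3 to 15 counts a library, is limited by depth.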

Other observations

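Of 92 other chaperone genes in 6 lists, 86 were found and 75 tested. None was called by edgeR at an adjusted p of 0.05, 39 differences were positive and 36 negative with a median of 0.003 on the log2 scale, and 2 had an unadjusted p under 0.05. DNAJB5, a J domain protein, had 33, 57 and 37 counts in Con and 17, 5 and 21 counts in Ang, with every Ang library below every Con library in CPM and a log2 fold change of -1.20 ± 0.49. HSPA13, a microsomal HSP70 relative, gave -0.44 ± 0.22. Their list of 25 tested HSP70 and J domain genes had a median of -0.15, with 12 positive and 13 negative, and DNAJC13, which works in endosomes, had the next smallest p of the list at -0.38 ± 0.24. In 5 of the 75 genes every Ang library lay below every Con library and in 1 above, beside 4.54% and 3.62% of all tested genes.

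The other lists held medians nearer 0. The 17 tested HSP90 co-chaperones had 12 positive differences and a median of 0.05, with TTC1 at -0.30 ± 0.23, SGTB at 0.30 and TOMM34 at -0.25. The 15 genes of prefoldin, which passes actin and tubulin to CCT, and of chaperonin helpers had a median of -0.03, with PFDN2 at 0.41 ± 0.23, PDCL3 at -0.75 ± 0.47 and TXNDC9 at -0.40. The 8 regulators of HSF and exchange factors had a median of -0.01, with HIKESHI, which carries HSP70 into the nucleus, at -0.46, BAG5 at -0.21 and HSPBP1 at 0.29. The 10 genes of mitochondrial protein quality control had a median of -0.03, with CLPP at 0.50 ± 0.35, CLPX at -0.19 and HSCB at 0.45. The further small heat shock proteins, some of them known from muscle, had few counts: CRYAB had 0, 0 and 2 counts in Con and 7, 0 and 1 in Ang, HSPB6 had 4, 4 and 1 and 1, 1 and 5, and HSPB9 had 0, 4 and 0 and 2, 0 and 0. The other genes of that list, CRYAA, HSPB2, HSPB3, HSPB7 and HSPB11, and HSF5 were not analysed here.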
